A study of Mus musculus with 3 samples.

Results

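The subject here is the effect of adding interleukin 15 (IL-15) and transforming growth factor beta (TGF-beta) to stimulated CD8+ T cells from young mice, described across all genes. The comparison rests on 2 of the 3 samples of the series, with 1 sample a side. Both came from Young WT mice of 6 weeks, and in both the CD8+ T cells of spleen and lymph node were cultured for 3 days with anti-CD3 and anti-CD28 antibodies (1 µg/ml), which stimulate the T cell receptor and a co-stimulatory receptor. The young TCR sample received these antibodies alone, and the young TRM sample was given IL-15 (20 ng/ml) and TGF-beta (5 ng/ml) in addition (the TRM condition, named after tissue-resident memory T cells). The remaining sample, aged TRM, came from Aged WT mice of 18 months in the TRM condition. It enters the scaling of the libraries and is otherwise given only as values set beside the others. The labels give neither the number of mice nor whether mice were pooled. Of the 17121 genes listed in the series, the 11588 with a level of at least 1 CPM in young TCR or young TRM were tested (CPM is the number of a gene's reads scaled to a library of 1000000 reads).

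IL-15 acts on T cells through a receptor that shares its beta and gamma chains with the receptor for IL-2, and signals through JAK kinases and STAT transcription factors to support survival and growth. TGF-beta binds a pair of receptor kinases on the cell surface, which phosphorylate Smad proteins that then enter the nucleus, and it induces its own inhibitors. In CD8+ T cells in tissues the pair of cytokines is known for favouring the resident memory state, whose best known marker is the integrin chain CD103, encoded by Itgae.

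The young TCR library held 39915663 reads and the young TRM library 36021887. Each sample had 2 numbered columns in the deposited table, whose numbering the labels leave unexplained. The columns were summed as repeat measurements of 1 sample, so no difference was tested against the variation between mice or cultures and no p-value is given. A rise or a fall was called where the log2 ratio of its CPM, with a pseudocount of 1 CPM, was at least 1 in size and the 95% counting interval of its ratio excluded 1. Folds and their intervals are printed without the pseudocount, and intervals cover counting error only, since reads are not independent molecules. By the same rule, 1 young TCR column stood above the other at 12 genes and below it at 10 (0.191% of those tested), and the young TRM columns parted at 11 and 10 genes (0.185%). In bulk RNA, a change in the number of cells of a type and a change in RNA per cell cannot be told apart.

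Between the samples, 901 of 11588 tested genes were called, which is 7.78%. Of these, 484 rose (4.18% of those tested) and 417 fell (3.6%), and these shares are the background for every count below. The bulk of the transcriptome stayed close, with a median log2 ratio of 0.02, quartiles of -0.23 and 0.24, and 9443 genes (81.5%) within 1.5-fold. The tail was longer upwards, where 115 genes had a log2 ratio of at least 2 and 15 of at least 4, against 76 and 2 genes with as large a drop. The genes that rose took 1.89% of the young TCR library and 5.39% of the young TRM library, and the genes that fell took 2.17% and 0.692%. Calls in both directions were spread over the range of expression, but falls were rarer among abundant genes: 8.42% of the genes with a mean below 3 CPM fell and 0.84% of those at 300 CPM or more, whereas 5.95% and 4.2% rose.

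**Figure D1:**
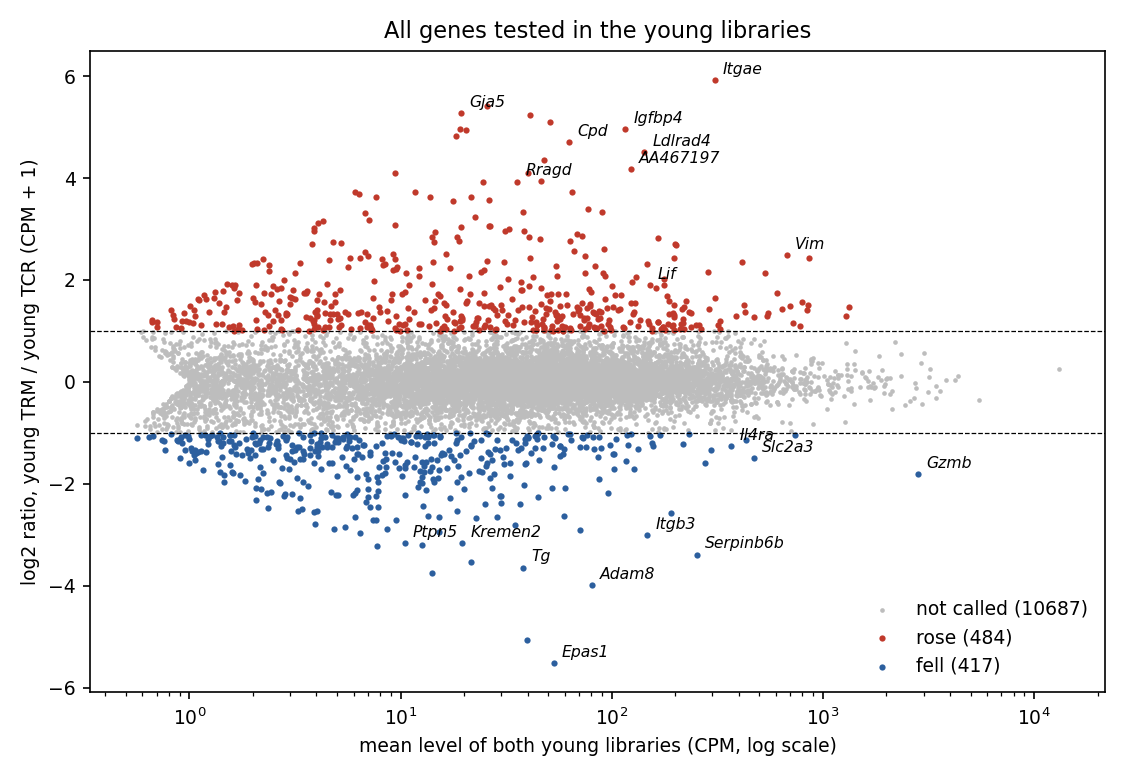
Each point is 1 of 11588 tested genes, with its mean CPM in both young libraries on a log axis and the log2 ratio of young TRM to young TCR (CPM + 1) on the vertical axis. Dashed lines mark 2-fold in either direction, the 484 genes that rose are red, the 417 that fell are blue, and most genes lie close to 0 at every level of expression.

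The 7 listed markers of CD8 T cells summed to 2830 CPM in young TCR and 4230 CPM in young TRM, and of 7 tested ones 1 rose and none fell. Cd3e, Cd3d and Cd3g, which encode chains of the T cell receptor complex, had 302 and 379.7 CPM, 272 and 275 CPM and 347 and 395 CPM in young TCR and young TRM, and Cd8b1, the CD8 beta chain, had 424 and 593 CPM. Cd8a, the CD8 alpha chain, rose from 747 to 1822 CPM. Of the same list, Thy1 had 563 and 660 CPM, and Cd5 was lower in young TRM, with 176 and 111 CPM, but was not called. Cd4, the helper T cell co-receptor, had 10.5 and 12.4 CPM. The 11 listed markers of B and plasma cells summed to 53.0 CPM in young TCR and 18.4 CPM in young TRM, and of the 8 tested ones 6 fell. The 14 listed myeloid markers summed to 68.5 and 146 CPM, most of it Ctss, which T cells also express, and of 7 tested ones 2 rose and 1 fell. The 7 listed mast cell and basophil markers summed to 32.5 and 89.0 CPM, most of it Kit, and of 5 tested ones 3 rose. Of single markers, the B cell gene Ms4a1 fell from 7.4 to 0.426 CPM. The macrophage genes Lyz2 and Adgre1 were at most 0.913 CPM in either library, with Adgre1 at 0 in young TRM. The myeloid marker Mpeg1 rose from 4.22 to 28.7 CPM. The mast cell gene Mcpt4 was at 0 in young TCR and at 0.0284 CPM in young TRM. Of the same list, Cpa3 rose from 0.814 to 5.36 CPM and Mcpt8 from 0.173 to 1.67 CPM. The 11 listed stromal and endothelial markers summed to 87.2 and 83.6 CPM, with none of 4 tested ones called. The part of these other cells in the results below was not tested.

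Of the 11588 tested genes, 4115 were sorted into 94 families by function or by shared name. In 8 of these families no member was called. Of the genes in a family 11.3% were called, so the choice of families itself lies above the share over all tested genes. Calls exceeded the background of 7.78% in many families that face the outside of the cell: secreted proteins, their inhibitors, receptors and adhesion molecules. Families inside the cell exceeded it too. Among them were the interferon-induced GTPases (43.8%), the IRF, STAT, NFAT and ETS factors (28.6%) and the basic helix-loop-helix and clock genes (22%). On the surface, C-type lectins and galectins (8.33%) and class I genes (10.3%) lay near the background. Falls were also more frequent among scarce genes, as given above, and families were not matched for level. No member was called among ribosomal proteins, translation factors and replication genes, described further on. The families and their members were chosen with results of these data known, so the counts describe the data and support no theme.

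**Figure D2:**
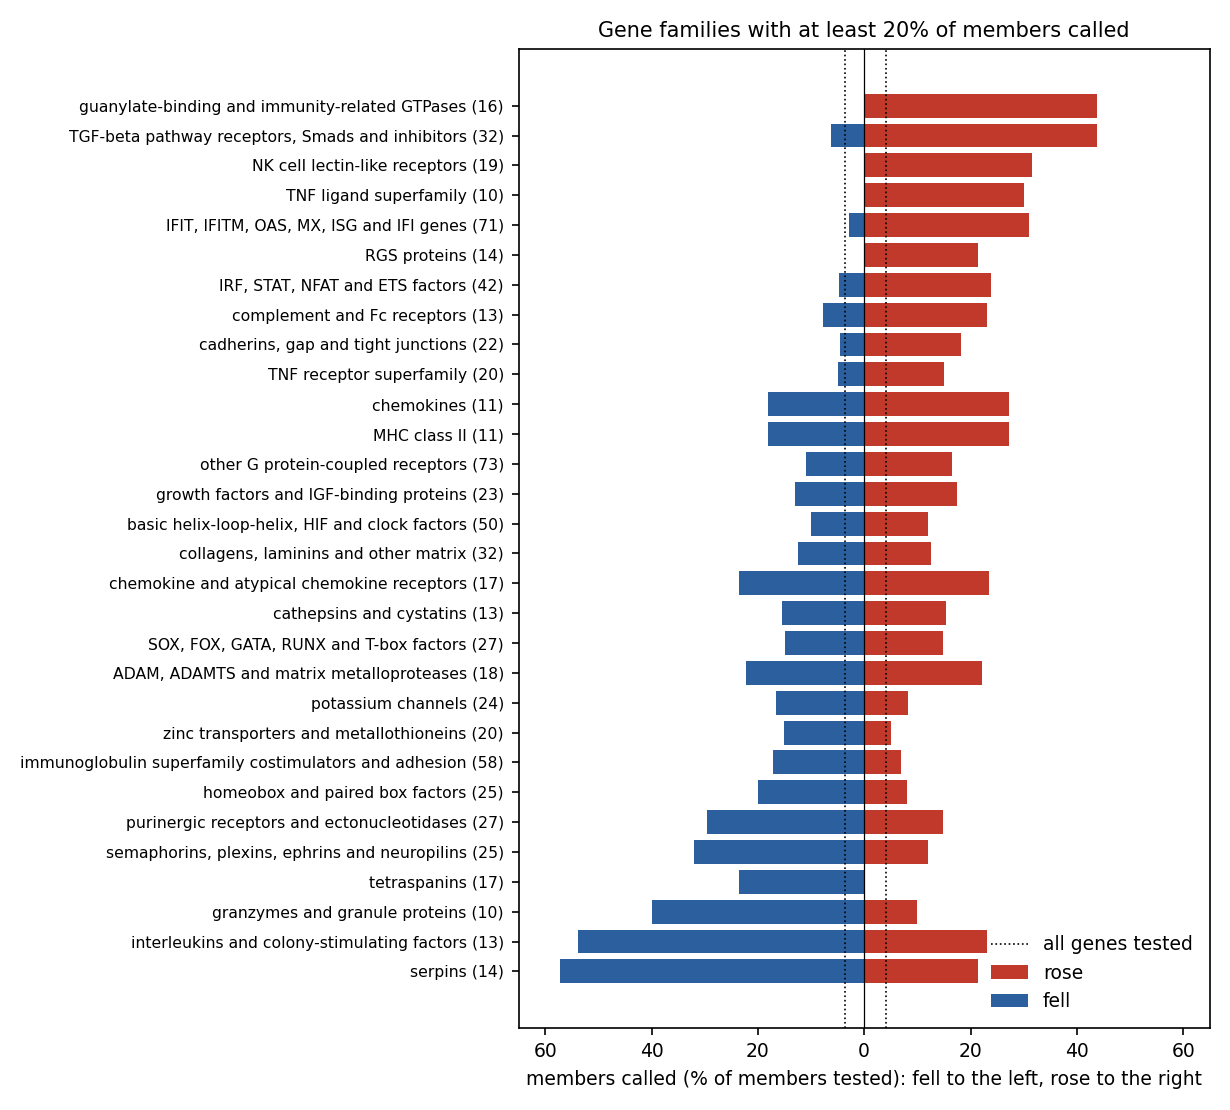
Bars give, for each family with at least 10 tested members and at least 20% of them called, the percent that rose (red, to the right) and fell (blue, to the left), with the number of members tested in brackets. Dotted lines mark the shares over all tested genes (4.18% and 3.6%); TGF-beta pathway genes and interferon-induced GTPases lie at the top and serpins and interleukins at the bottom.

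Secreted signals changed in both directions. Of 13 tested interleukin and colony-stimulating factor genes, 3 rose and 7 fell, and the median log2 ratio was -1.15. That median was -0.33 with a pseudocount of 5 CPM (2 rose, 4 fell), -0.32 at a minimum of 10 CPM (7 genes) and -0.10 with no minimum level (36 genes). Lif, which encodes leukaemia inhibitory factor, rose from 63.3 to 239 CPM (3.77-fold, interval 3.61 to 3.94), with 58.1 and 68.7 CPM in the young TCR columns and 237 and 241 CPM in the young TRM columns. Osm, which encodes the related cytokine oncostatin M, rose from 36.6 to 79.6 CPM. Both signal through the receptor chain gp130. Csf2, which encodes the granulocyte-macrophage colony-stimulating factor GM-CSF, fell from 22.4 to 3.29 CPM (6.79-fold, interval 5.596 to 8.32), and Csf1, which encodes the macrophage growth factor M-CSF, fell from 12.8 to 1.504 CPM (8.49-fold, interval 6.39 to 11.5). These genes thus moved apart, with the gp130 ligands higher and the colony-stimulating factors lower in young TRM. Il13, a type 2 cytokine, fell from 14.8 to 0.681 CPM, and Ebi3, a subunit shared by IL-27 and IL-35, fell from 3.55 to 0.823 CPM.

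Among 10 tested ligands of the tumour necrosis factor (TNF) superfamily, 3 rose and none fell, with a median of 0.53 that was 0.01 with no minimum level (16 genes) and 0.34 on the authors' TPM (12 genes). Lta, which encodes lymphotoxin alpha, rose from 20.4 to 89.8 CPM (4.41-fold, interval 4.08 to 4.77), Tnf itself rose from 15 to 44.7 CPM, and Tnfsf10, which encodes the death ligand TRAIL, rose from 71.6 to 181 CPM. Of 20 TNF receptor genes 3 rose and 1 fell, and the extremes were far apart. Tnfrsf11a encodes RANK, the receptor for the ligand RANKL. It had 13 reads in young TCR and 1285 in young TRM and rose from 0.321 to 36.5 CPM. Tnfrsf8, which encodes CD30, an activation receptor, fell from 77.6 to 1.36 CPM (56.98-fold, interval 42.9 to 77.5), with 75.2 and 80.1 CPM in the young TCR columns and 1.02 and 1.64 CPM in the young TRM columns. Tnfrsf1b, which encodes the TNF receptor TNFR2, rose from 113 to 238 CPM.

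Of 23 growth factor and IGF-binding protein genes, 4 rose and 3 fell (median log2 ratio -0.23, but 0.51 over the 9 genes with at least 10 CPM). Igfbp4, whose product binds insulin-like growth factors outside the cell, rose from 6.26 to 226 CPM (36.01-fold, interval 31.8 to 40.97). Vegfa, a growth factor for blood vessels, rose from 63.1 to 133 CPM, and Fgf13, a member of the fibroblast growth factor family that stays inside the cell, rose from 19.6 to 44.4 CPM. Tgfb3, which encodes a TGF-beta, fell from 14.1 to 5.904 CPM. Among 32 genes of collagens, laminins and other matrix proteins 4 rose and 4 fell. Col15a1, a collagen of basement membranes, rose from 2.27 to 16.5 CPM, Fbln2, which encodes the matrix protein fibulin 2, rose from 1.33 to 11.6 CPM, and the laminin chain gene Lama5 rose from 5.35 to 16.3 CPM. Podnl1, a small leucine-rich matrix protein, fell from 23.7 to 1.68 CPM (14.1-fold, interval 10.9 to 18.7), and Emilin2 fell from 30.7 to 12.4 CPM. Not every setting kept the call, which ended for Vegfa with column 1 alone, and for Lama5 with the authors' TPM.

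Genes of proteases and of their inhibitors stood among those with the most calls. Of 18 genes of ADAM and matrix metalloproteases, 4 rose and 4 fell. ADAM proteases cut proteins at the cell surface. Adam19 rose from 53.5 to 349 CPM (6.53-fold, interval 6.24 to 6.84), with 53.99 and 52.96 CPM in the young TCR columns and 356 and 344 CPM in the young TRM columns, while Adam8 fell from 152 to 8.63 CPM (17.6-fold, interval 15.7 to 19.9), with 149 and 155 CPM in the young TCR columns and 8.58 and 8.67 CPM in the young TRM columns. The columns of each sample lay close together for both genes. Mmp11 rose from 4.04 to 17.9 CPM and Adamts6 rose from 23.5 to 79.8 CPM, while Adamts14 fell from 11.99 to 2.04 CPM. Timp2, which encodes an inhibitor of metalloproteases, rose from 3.55 to 77.1 CPM (21.7-fold, interval 18.4 to 25.9), and its relative Timp3 fell from 3.45 to 0.653 CPM. Furin, which encodes a convertase that cuts precursor proteins (pro-TGF-beta among them), rose from 50.2 to 211 CPM, and Cpd, which encodes a carboxypeptidase that trims what such convertases have cut, rose from 3.73 to 122 CPM (32.9-fold, interval 27.96 to 38.95). Among these genes the call ended for Timp3 with the authors' TPM and with a pseudocount of 5 CPM.

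Serpins, most of which block serine proteases by trapping them, had a median log2 ratio of -1.44 over 14 tested genes, with 3 risen and 8 fallen. That median was -0.76 with a pseudocount of 5 CPM and -0.04 with no minimum level (36 genes). Serpinb6b fell from 462 to 43.2 CPM (10.7-fold, interval 10.2 to 11.3), Serpinb9b fell from 27.1 to 1.08 CPM and Serpinb9, whose product inhibits granzyme B, fell from 327 to 54.5 CPM. Serpine2, which encodes the extracellular inhibitor protease nexin 1, fell from 125 to 15.8 CPM (7.96-fold, interval 7.29 to 8.702). The members that rose belonged to another clade, with Serpina3f rising from 27.03 to 122.6 CPM and Serpina3g from 85.9 to 280.1 CPM. Serpina3 genes resemble each other, as do Serpinb9 and Serpinb9b and the Serpinb6 pair, and since the handling of multi-mapped reads is not stated, their separate values are uncertain. Of 13 cathepsin and cystatin genes, Ctsw and Ctss rose (156 and 419 CPM, and 40.5 and 102 CPM) and Ctsz and Cst7 fell (47.04 and 20.7 CPM, and 138 and 36.1 CPM).

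Receptors for small molecules and peptides also went both ways. Of 73 tested G protein-coupled receptor genes outside the chemokine receptors, 12 rose and 8 fell (median log2 ratio 0.15). Gpr155 rose from 3.23 to 49.4 CPM (15.3-fold, interval 12.8 to 18.4), Adgrg1, an adhesion receptor found on cytotoxic lymphocytes, rose from 3.55 to 41.6 CPM, and Gpr34, a receptor for lysophosphatidylserine, rose from 9.22 to 72.1 CPM. F2rl1, which encodes the protease-activated receptor PAR2, rose from 14.7 to 59.8 CPM. Vipr2, a receptor for vasoactive intestinal peptide, rose from 0.641 to 9.85 CPM, and Gpr15, a receptor that guides T cells to the colon, rose from 0.444 to 6.27 CPM. Ptgir, the prostacyclin receptor, fell from 10.3 to 0.568 CPM (18.2-fold, interval 11.6 to 30.1), the histamine receptor gene Hrh2 fell from 13.5 to 3.58 CPM and Gpr174, another lysophosphatidylserine receptor, fell from 139 to 58.2 CPM. Gpr34 and Gpr174, which share a ligand, thus moved in opposite directions.

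Genes that make, break down and sense extracellular nucleotides had 12 calls among 27 tested, 4 risen and 8 fallen. CD39 and CD73 are enzymes on the cell surface that turn ATP into adenosine. Their genes Entpd1 and Nt5e rose from 12.1 to 69.7 and from 40.5 to 292 CPM (7.22-fold, interval 6.85 to 7.61 for Nt5e). Among the sensors falls prevailed. Adora2a, the adenosine receptor through which adenosine restrains T cells, fell from 44.5 to 9.76 CPM (4.55-fold, interval 4.06 to 5.13), with 44.4 and 44.6 CPM in the young TCR columns and 8.71 and 10.6 CPM in the young TRM columns, and Adora2b, a receptor of lower affinity, rose from 1.75 to 6.102 CPM. The ATP-gated channel genes P2rx7 and P2rx4, which are neighbours on chromosome 5, fell from 21.9 to 5.79 and from 17.1 to 7.66 CPM. Adk, the kinase that clears adenosine inside the cell, fell from 86.3 to 31.8 CPM, Bst1, an ectoenzyme that consumes NAD and is also found on B cells, fell from 15.9 to 1.28 CPM, and Art2b, an ectoenzyme that attaches ADP-ribose to P2RX7, fell from 119 to 55.3 CPM. The enzymes that yield adenosine and the receptor that answers to it at low levels therefore moved in opposite directions. Entpd4 is left out because its reads lay in 1 young TRM column only. Calls ended for P2rx4 with column 1 alone and with a pseudocount of 5 CPM.

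Of 35 interleukin receptor chain genes 4 rose and 1 fell. The genes of both chains of the IL-18 receptor rose, Il18r1 from 10.7 to 80.7 CPM (7.52-fold, interval 6.798 to 8.34) and Il18rap from 19.5 to 55.6 CPM. Ifngr2, the signalling chain of the interferon gamma receptor, rose from 17.98 to 90.5 CPM (5.04-fold, interval 4.64 to 5.46). Il4ra, shared by the receptors for IL-4 and IL-13, fell from 518 to 215 CPM. The receptor chains that bind IL-15 and IL-2 passed no threshold: Il2rb had 1372 and 1245 CPM, Il15ra 20 and 20.2 CPM and Il2ra 868 and 1117 CPM.

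Adhesion and guidance molecules changed at several genes. Of 21 integrin chain genes 2 rose and 2 fell. Itgae rose from 8.98 to 605 CPM (67.4-fold, interval 60.8 to 74.99), and Cdh1, which encodes E-cadherin, the ligand of the integrin that contains CD103, rose from 1.16 to 80.8 CPM. Itgb3, the beta chain of the receptor for vitronectin, fell from 263 to 31.9 CPM (8.25-fold, interval 7.75 to 8.78), with 258 and 269 CPM in the young TCR columns and 35.7 and 28.9 CPM in the young TRM columns. Gja5, which encodes the gap junction protein connexin 40, had 1 read without the cytokines and 1355 with them. Its level rose from 0.0247 to 38.5 CPM, and the ratio has a counting interval of 279 to 61630 because 1 read sets the lower level. Among 22 genes of cadherins, gap and tight junctions, 4 rose and 1 fell, Cldn10, a claudin, from 6.49 to 0.823 CPM.

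Semaphorins, plexins, ephrins and neuropilins, best known as guides of growing nerve fibres, had 3 risen and 8 fallen among 25 tested genes. The ligand genes Sema6d and Sema7a rose from 25.01 to 159 CPM (6.34-fold, interval 5.93 to 6.79) and from 40.1 to 112 CPM. Plexins are the receptors of semaphorins. Plxnc1, which encodes a receptor for the product of Sema7a, fell from 49.5 to 9.73 CPM (5.08-fold, interval 4.53 to 5.72), and Plxnd1 fell from 40.95 to 13.5 CPM, Plxna1 from 19.6 to 5.14 CPM and Plxna3 from 8.26 to 1.08 CPM. Plxnb1, another plexin gene, rose from 2.12 to 5.28 CPM. Sema4b fell from 36.8 to 10.2 CPM. Of 17 tetraspanin genes, whose products organise other proteins in the membrane, 4 fell and none rose, with a median of -0.48 (-0.14 over 26 genes with no minimum level). Cd81 fell from 42.9 to 7.38 CPM (5.82-fold, interval 5.103 to 6.65), Tspan32 from 39.96 to 5.42 CPM (7.37-fold, interval 6.34 to 8.61) and Tspan4 from 13.7 to 3.24 CPM. Among these genes the call ended for Plxnb1 with scaling by library totals only, a pseudocount of 5 CPM, the authors' TPM and column 2 alone.

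Of 58 immunoglobulin superfamily genes for costimulation and adhesion 4 rose and 10 fell. Cd274, which encodes the inhibitory ligand PD-L1, rose from 50.5 to 140.5 CPM, and Cd101, a marker of a late state of exhausted T cells, rose from 9.84 to 31.4 CPM, while Pdcd1, which encodes the receptor PD-1, had 42.4 and 42.9 CPM. Slamf6 fell from 97.6 to 22.4 CPM (4.36-fold, interval 4.04 to 4.72), and Sh2d1a, which encodes the adaptor SAP that SLAM family receptors use, fell from 43.6 to 11.7 CPM. The receptor and its adaptor were thus both lower in young TRM. Cd80, a ligand of CD28, fell from 14.6 to 4.26 CPM, Alcam, the ligand of CD6, fell from 85.5 to 33.7 CPM, and the inhibitory receptor genes Lilrb4a and Lilr4b fell from 67.7 to 22.7 and from 23.2 to 5.42 CPM; this pair is nearly identical, and its separate values are uncertain. The Ly6 family of small surface proteins had 4 of 8 genes risen and none fallen, with a median of 0.99 that was 0.53 with a pseudocount of 5 CPM (2 rose) and 0.08 with no minimum level (17 genes). Ly6a, which encodes the surface protein Sca-1, rose from 443 to 1257 CPM and Ly6c1 rose from 9.497 to 52.3 CPM (5.505-fold, interval 4.93 to 6.16). Of 19 NK lectin-like receptor genes 6 rose and none fell, among them Klrc1, which encodes an inhibitory receptor chain and rose from 40.01 to 117 CPM. The 10 tested markers of NK and innate lymphoid cells, several of which activated CD8+ T cells share, summed to 478 and 337 CPM (6 rose, 2 fell). Most of that sum lay in Eomes (217 and 93.5 CPM), Il7r (139 and 109 CPM) and Gata3 (88.4 and 39.4 CPM). Kit rose from 29.6 to 78.4 CPM. Scarce markers rose: Ncr1 from 0.0493 to 2.19 CPM, Klrb1c from 0.937 to 4.14 CPM and Klrb1b from 0.641 to 3.75 CPM. Fcer1g rose from 1.23 to 4.51 CPM and Tyrobp from 0.247 to 1.59 CPM. The calls of these 2 genes ended with a pseudocount of 5 CPM, and with column 1 alone (Fcer1g) or column 2 alone (Tyrobp).

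In the TGF-beta pathway itself, 14 of 32 genes for receptors, Smads and inhibitors rose and 2 fell, with a median of 0.65 that was 1.02 over the 26 genes with at least 10 CPM and 0.33 over 37 genes with no minimum level. The count of risen genes was 10 with scaling by library totals only (3 fell) and with a pseudocount of 5 CPM (1 fell). It was 10 of 31 with the authors' TPM (2 fell) and 11 with column 2 alone (3 fell). Among receptor genes, Tgfbr1, the type I receptor for TGF-beta, rose from 42.1 to 158 CPM, Tgfbr3, the co-receptor betaglycan, rose from 27.6 to 94.1 CPM, and Tgfbr2, the type II receptor, rose from 118 to 239.6 CPM. Acvr2a, a receptor for activins, which are relatives of TGF-beta, rose from 3.75 to 33.1 CPM (8.83-fold, interval 7.46 to 10.5). Inhibitors rose beside the receptors. Smad7, which marks the receptor for destruction, rose from 15.7 to 68.9 CPM (4.39-fold, interval 4.02 to 4.797). Ski, a repressor that binds Smad proteins, rose from 48.4 to 244 CPM (5.05-fold, interval 4.805 to 5.304). Nedd4l, a ubiquitin ligase of Smad proteins, rose from 18.2 to 46.7 CPM. Ltbp3, which encodes a protein that anchors latent TGF-beta in the matrix, fell from 5.89 to 1.56 CPM. A call did not hold for Tgfbr2 with scaling by library totals only, a pseudocount of 5 CPM, the authors' TPM and column 1 alone.

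Of 28 JAK, STAT and SOCS genes 4 rose and 1 fell. Stat2, which carries interferon signals, rose from 56.5 to 122 CPM, and the inhibitors Socs1 and Socs2 rose from 73.8 to 155 and from 9.47 to 33.4 CPM. Stat4, which carries IL-12 signals, fell from 414 to 137 CPM (3.02-fold, interval 2.93 to 3.12). Of 14 RGS genes, whose products end signals of G proteins, 3 rose and none fell. Rgs16 rose from 47.8 to 158 CPM and Rgs1 from 143 to 296 CPM. Of 26 protein tyrosine phosphatase genes 1 rose, Ptprj from 25.8 to 71.8 CPM, and 4 fell, among them Ptpn5 from 19.6 to 1.31 CPM (15-fold, interval 11.1 to 20.7) and Ptprk from 13.3 to 2.02 CPM. In the Notch pathway 2 of 21 genes rose: Nrarp, a feedback inhibitor that Notch induces, from 4.12 to 33.9 CPM (8.22-fold, interval 6.99 to 9.72), and Notch1 from 129.6 to 264 CPM. In the Wnt pathway 2 of 32 genes rose and 3 fell, among them the ligand gene Wnt10b from 20.2 to 4.09 CPM and Kremen2, which encodes a receptor for Wnt inhibitors, from 36.1 to 3.12 CPM. The 43 T cell receptor signalling genes had a median of 0.15, with Cd8a risen and Gata3, Sh2d1a and Trat1 fallen. Trat1, which encodes an adaptor of the receptor complex, fell from 33.1 to 6.95 CPM. Calls ended for Rgs1 with scaling by library totals only and column 1 alone. The call of Notch1 ended with scaling by library totals only, a pseudocount of 5 CPM, the authors' TPM and column 2 alone.

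Transcription factors showed few calls in the largest family and many in some small ones. Of 326 tested C2H2 zinc finger genes named Zfp, 4 rose and 4 fell. Of 42 IRF, STAT, NFAT and ETS genes (the Ikaros family was counted here), 10 rose and 2 fell (median log2 ratio 0.32). Irf1 and Irf8 rose from 313 to 772 and from 278 to 938 CPM, Etv3, a repressor of the ETS family, rose from 29.4 to 84.1 CPM, and the Ikaros family genes Ikzf4 (Eos), Ikzf2 (Helios) and Ikzf3 (Aiolos) rose from 21.9 to 127 CPM (5.77-fold, interval 5.37 to 6.21), from 117 to 315 and from 196 to 453 CPM. Eos and Helios are known from regulatory T cells, as is Foxp3, which rose from 1.95 to 33.6 CPM (17.2-fold, interval 13.7 to 21.9). The 6 listed markers of CD4 and regulatory T cells summed to 413 and 603 CPM, of 5 tested ones 2 rose and 1 fell, and Cd4 itself is given above.

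Among 50 basic helix-loop-helix and clock genes 6 rose and 5 fell. Ahr, the receptor for dioxin and dietary ligands, rose from 2.17 to 47.2 CPM, and Ahrr, its repressor, rose from 0.0987 to 1.31 CPM. Mxd1 and Max, whose products oppose or partner MYC, a driver of growth, rose from 51.2 to 170.3 and from 102 to 231 CPM, while Myc had 257 and 311 CPM. Epas1, which encodes HIF-2alpha, a factor of the response to low oxygen, fell from 105 to 1.31 CPM (80.3-fold, interval 60.1 to 109.8), with 104 and 106 CPM in the young TCR columns and 0.8899 and 1.64 CPM in the young TRM columns. Id2 and Id3 encode inhibitors of E proteins that mark alternative fates of CD8+ T cells. They went apart, with Id2 falling from 168 to 71.3 CPM and Id3 rising from 9.92 to 30.97 CPM. Nfil3, a bZIP factor that was counted here with the clock genes, fell from 127 to 45.1 CPM. In the bZIP family 6 of 42 rose and 2 fell, the largest being Jun, which rose from 61.4 to 335 CPM (5.45-fold, interval 5.22 to 5.69), and Batf, which fell from 62.7 to 11.2 CPM (5.61-fold, interval 5.04 to 6.25). The nuclear receptors had 3 of 24 risen and none fallen, and Nr4a1 and Nr4a3, which respond to T cell receptor signals, rose from 35.9 to 101 and from 53.3 to 149 CPM. Rara, the retinoic acid receptor, rose from 23.7 to 63.3 CPM. The repressor gene Bcl6 fell from 23.9 to 3.01 CPM (7.94-fold, interval 6.49 to 9.79), as did Prdm1, which encodes BLIMP-1 and opposes it, from 18.01 to 3.09 CPM. Both members of this antagonistic pair were lower. Klf2, which drives genes of exit from tissues, rose from 35 to 151 CPM (4.303-fold, interval 4.06 to 4.57), and Satb1, an organiser of chromatin, fell from 598 to 271 CPM, with Hopx falling from 60.6 to 22.3 CPM. Sox4, a transcription factor known to respond to TGF-beta, fell from 17.3 to 1.79 CPM (9.66-fold, interval 7.46 to 12.7), Runx2 rose from 51.97 to 125 CPM, Zbtb18 rose from 22.6 to 76.2 CPM and Zbtb32 rose from 93.2 to 207 CPM. Pou2af1, which encodes the B cell coactivator OCA-B, also used by T cells, fell from 40.7 to 2.58 CPM (15.8-fold, interval 12.8 to 19.7), beside the fall in summed B cell markers from 53.0 to 18.4 CPM. The histone demethylase genes Kdm6b and Kdm3a rose from 33.8 to 122 and from 163 to 355 CPM, against 3 risen and 3 fallen in all of 165 chromatin modifiers. Not every setting kept the call, which ended for Ahrr with column 2 alone and with a pseudocount of 5 CPM.

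Genes induced by interferon shared an upward shift. All 16 tested guanylate-binding protein (GBP) and immunity-related GTPase (IRG) genes had a log2 ratio above 0, with a median of 0.92 and 7 called as risen, and their summed level was 3132 CPM in young TCR, 7555 CPM in young TRM and 4589 CPM in aged TRM. These large GTPases attack vacuoles that hold microbes. Gbp6 rose from 196 to 872 CPM (4.44-fold, interval 4.33 to 4.55), Gbp2 from 366 to 1031 CPM (2.82-fold, interval 2.77 to 2.88), Igtp from 456 to 1221 CPM (2.68-fold, interval 2.63 to 2.72) and Irgm2 from 122.6 to 262 CPM. Among 71 tested IFIT, IFITM, OAS, MX, ISG and IFI genes 22 rose and 2 fell (median log2 ratio 0.67). Their summed level was 3765 CPM in young TCR, 6545 CPM in young TRM and 3657 CPM in aged TRM. IFIT proteins bind viral RNA. Ifit3 rose from 4.81 to 87.7 CPM (18.2-fold, interval 15.8 to 21.2), with 4.23 and 5.39 CPM in the young TCR columns and 86.2 and 88.9 CPM in the young TRM columns, Ifit1 rose from 3.63 to 20.8 CPM (5.74-fold, interval 4.8 to 6.897), Ifit2 from 36.9 to 94.1 CPM and Ifit1bl1 from 33.1 to 148 CPM. Ifit3b, nearly identical to Ifit3, rose from 0.789 to 22.7 CPM, and the share of reads that belongs to each is uncertain. Samhd1, which breaks down deoxynucleotides, rose from 399 to 1185 CPM (2.97-fold, interval 2.92 to 3.02). Epsti1, another gene of this list, fell from 195 to 58.8 CPM (3.32-fold, interval 3.16 to 3.49). Trim30c and Trim30a rose from 1.21 to 26.2 and from 113 to 282 CPM, and the ubiquitin ligase gene Rnf213 rose from 133 to 341 CPM.

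The promoters of these genes are printed because the family moved together and because the elements that bind interferon-activated factors have a known sequence. The sequences are RefSeq's for GRCm38.p6 and end at the base before the start that RefSeq's promoter table uses, which for Ifit3 and Ifit3b lies inside the gene's annotated span. The Ifit1 sequence ends further upstream, before the gene's first exon in GENCODE, and Gbp2 is given by its motif position alone. Capitals mark matches, on either strand, to the interferon-stimulated response element, searched as GAAANNGAAA, and to the gamma-activated site, searched as TTCNNNGAA, where N is any base. A stretch can match both and then counts for each. The genes shown were chosen after their values were seen. The windows lie on the plus strand at chr19:34583329-34583528 (Ifit3), chr19:34607757-34607956 (Ifit3b), chr19:34640759-34640870 (Ifit1), chr11:58199456-58199555 (Igtp) and chr11:58214877-58214976 (Irgm2).
Ifit3: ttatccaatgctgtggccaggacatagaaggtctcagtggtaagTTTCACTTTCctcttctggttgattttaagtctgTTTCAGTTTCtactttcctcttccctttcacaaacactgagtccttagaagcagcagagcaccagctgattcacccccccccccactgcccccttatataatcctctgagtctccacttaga
Ifit3b: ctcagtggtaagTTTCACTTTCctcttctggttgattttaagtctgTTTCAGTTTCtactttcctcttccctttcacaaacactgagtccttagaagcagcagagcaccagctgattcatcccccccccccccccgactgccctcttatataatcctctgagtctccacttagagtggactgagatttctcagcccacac
Ifit1: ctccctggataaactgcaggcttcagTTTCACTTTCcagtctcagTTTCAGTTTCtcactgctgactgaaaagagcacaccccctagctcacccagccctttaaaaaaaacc
Igtp: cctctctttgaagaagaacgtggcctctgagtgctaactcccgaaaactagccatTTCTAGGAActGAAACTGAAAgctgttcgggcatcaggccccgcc
Irgm2: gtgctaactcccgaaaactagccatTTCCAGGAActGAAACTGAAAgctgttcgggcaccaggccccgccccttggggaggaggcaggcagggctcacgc

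The 3 Ifit windows each held the response element at 2 places, on the strand opposite to the gene. In Ifit3 these lay 156 to 147 and 122 to 113 bases before the start, and in Ifit1 at 104 to 95 and 85 to 76. The Ifit3 and Ifit3b windows carry the same pair in the same surroundings, shifted against that start. Gbp2 had 1 response element, 59 to 50 bases before the start. Igtp and Irgm2 each had 1 response element on the gene's own strand with a gamma-activated site just before it, at 34 to 25 and 45 to 37 bases in Igtp. Over the whole of the 300-base promoters, from 250 bases before to 50 after the start, GAAANNGAAA occurred in 3.99% of 27025 genes. It occurred in 9 of the 10 GBP and IRG genes that had a promoter in the table, in 29 of 60 genes (48.3%) of the IFIT and IFI list, in 35 of 370 genes that rose (9.46%), in 22 of 326 that fell (6.75%) and in 295 of 8685 that were not called (3.4%). TTCNNNGAA occurred in 9.55% of all promoters, in 48 of 370 genes that rose (13%), in 22 of 326 that fell (6.75%) and in 8.19% of those not called. Within the IFIT and IFI list, 11 of 19 genes that rose and 17 of 39 that were not called held the response element. Among the GBP and IRG genes, 4 of 4 that rose and 5 of 6 that were not called held it. The gamma-activated site lay in 2 of these 4 and in 4 of these 6. Both lists gather genes known to be induced by interferon, and the genes that rose include members of both. A match is a run of letters and does not show that a factor binds there.

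Genes of antigen presentation shifted less. Of 29 class I genes and loading factors 23 had a log2 ratio above 0, with a median of 0.51 and a sum of 12400 CPM in young TCR and 16820 CPM in young TRM, but only 2 rose and 1 fell. B2m, the light chain of class I molecules, had 1607 and 2778 CPM and H2-K1 1901 and 2787 CPM, both below the 2-fold limit. H2-M3, which presents formylated peptides, rose from 31.5 to 91.4 CPM, and H2-Q10, a soluble class I molecule, fell from 27.6 to 2.73 CPM (10.1-fold, interval 8.204 to 12.6). In class II, the neighbouring genes of the loading factor DM rose, H2-DMa from 62.4 to 185 CPM (2.96-fold, interval 2.83 to 3.101) and H2-DMb2 from 13.5 to 40.1 CPM, while H2-Aa and H2-Eb1, chains of the presenting molecules, fell from 18.7 to 8.26 and from 13.6 to 5.88 CPM. Summed B cell markers fell beside the latter, as given above. Of the pattern receptors, Tlr1 and Tlr7 rose from 16.9 to 64.7 and from 11.6 to 35.7 CPM, and the inflammasome protease gene Casp1 fell from 19.3 to 5.88 CPM. Calls ended for H2-Eb1 with column 1 alone and with a pseudocount of 5 CPM.

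Calls among transporters and channels fell on particular genes. Of 25 sugar, lactate and nucleoside transporter genes 3 fell and none rose, with a median of -0.29. The glucose transporter gene Slc2a3 fell from 695 to 247 CPM, and its relative Slc2a6, found in lysosomes, fell from 62.2 to 14.5 CPM (4.28-fold, interval 3.89 to 4.72). Of 24 potassium channel genes 2 rose and 4 fell. Kcna2, a voltage-gated channel, fell from 27.1 to 3.46 CPM (7.82-fold, interval 6.48 to 9.501), Kcnc1, another, fell from 23.8 to 6.47 CPM, and Kcnj15, an inward rectifier, rose from 0.0493 to 12.6 CPM from 2 reads. Of 20 zinc transporter and metallothionein genes 1 rose and 3 fell. Metallothioneins hold zinc inside the cell, and Slc30a4 moves zinc out of the cytosol. Mt1 and Mt2 fell from 50.1 to 9.82 CPM (5.11-fold, interval 4.55 to 5.74) and from 29.1 to 5.17 CPM (5.63-fold, interval 4.81 to 6.62), and Slc30a4 rose from 43.8 to 103 CPM. The drug efflux pump genes Abcb1a and Abcb1b fell from 38.3 to 10.5 and from 81.97 to 25.2 CPM, the organic anion transporter gene Slco4a1 fell from 50.3 to 7.21 CPM (6.98-fold, interval 6.12 to 7.98), and the calcium pump gene Atp2b4 rose from 37.8 to 101 CPM. Car2, which encodes carbonic anhydrase II, rose from 1.95 to 100.5 CPM (51.6-fold, interval 41.3 to 65.3), with 2.26 and 1.63 CPM in the young TCR columns and 104 and 98.05 CPM in the young TRM columns; the other 5 tested members of its family passed no threshold.

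Among 58 genes of glutathione, thioredoxin and peroxide enzymes, 3 rose and 7 fell (median log2 ratio -0.26). The neighbouring glutathione transferase genes fell: Gstt1 from 20.7 to 4.48 CPM (4.63-fold, interval 3.899 to 5.52), Gstt2 from 52.2 to 20.1 CPM and Gstt3 from 12.8 to 2.78 CPM. Gsto1, another transferase, fell from 35.9 to 12.1 CPM, and Srxn1, which restores oxidised peroxiredoxins, fell from 11.7 to 2.38 CPM. Prdx6, a peroxiredoxin, rose from 109 to 280.1 CPM. Of 100 glycosyltransferase and sulfotransferase genes 8 rose and 3 fell. Gcnt1, which branches the sugar chains that carry selectin ligands, rose from 2.71 to 25.6 CPM (9.43-fold, interval 7.72 to 11.6), and St3gal1, which caps the unbranched chain with sialic acid, fell from 73.4 to 30.9 CPM. These enzymes compete for the same acceptor, and their genes moved in opposite directions. Galnt10 and Galnt6, which start such chains, rose from 19.5 to 73.1 and from 153 to 324 CPM, and Chst11, which adds sulfate to chondroitin, fell from 67.7 to 27.1 CPM. Upp1, which splits uridine, rose from 4.86 to 47.7 CPM (9.82-fold, interval 8.47 to 11.4), and Wars, the tryptophan tRNA synthetase that interferon induces, rose from 128 to 335 CPM while none of the other 33 tested synthetase genes was called. Crabp2, a carrier of retinoic acid, fell from 12.1 to 1.56 CPM, and Plin2, which coats lipid droplets, fell from 59.03 to 18.7 CPM.

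Genes of ribosomes, translation and replication had no call. None of 82 cytosolic ribosomal protein genes was called, and their median was 0.01. Of 78 mitochondrial ribosomal protein genes 69 had a log2 ratio below 0, with a median of -0.29, and the sum was 3509 CPM in young TCR and 2910 CPM in young TRM, again with none called. Of 120 genes of the TCA cycle and respiratory chain 101 were below 0 (median -0.16), and of 34 glycolysis genes 27 were (median -0.29). Gapdh, a glycolytic enzyme often used as a reference, had 6184 and 4827 CPM, and Actb, the actin reference, had 4179 and 4536 CPM. Translation factors (66 genes, median -0.15) and replication genes (59 genes, median -0.05) had none called, and the proliferation marker Mki67 had 873 and 1048 CPM. Ptprc, which encodes CD45, had 2252 and 1993 CPM. Cell cycle genes had 1 risen and 1 fallen of 39. Cdk6, a kinase of entry into the cycle, rose from 223 to 549.6 CPM, and Cdkn1a, which encodes the inhibitor p21, fell from 157 to 47.2 CPM (3.33-fold, interval 3.16 to 3.52). With scaling by library totals only, the median over all tested genes was -0.04 instead of 0.02, so a family median within that distance of 0 carries no direction. The lower medians of mitochondrial ribosomal proteins and glycolysis kept their sign in every setting tried, between -0.34 and -0.26 and between -0.33 and -0.20.

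**Figure D3:**
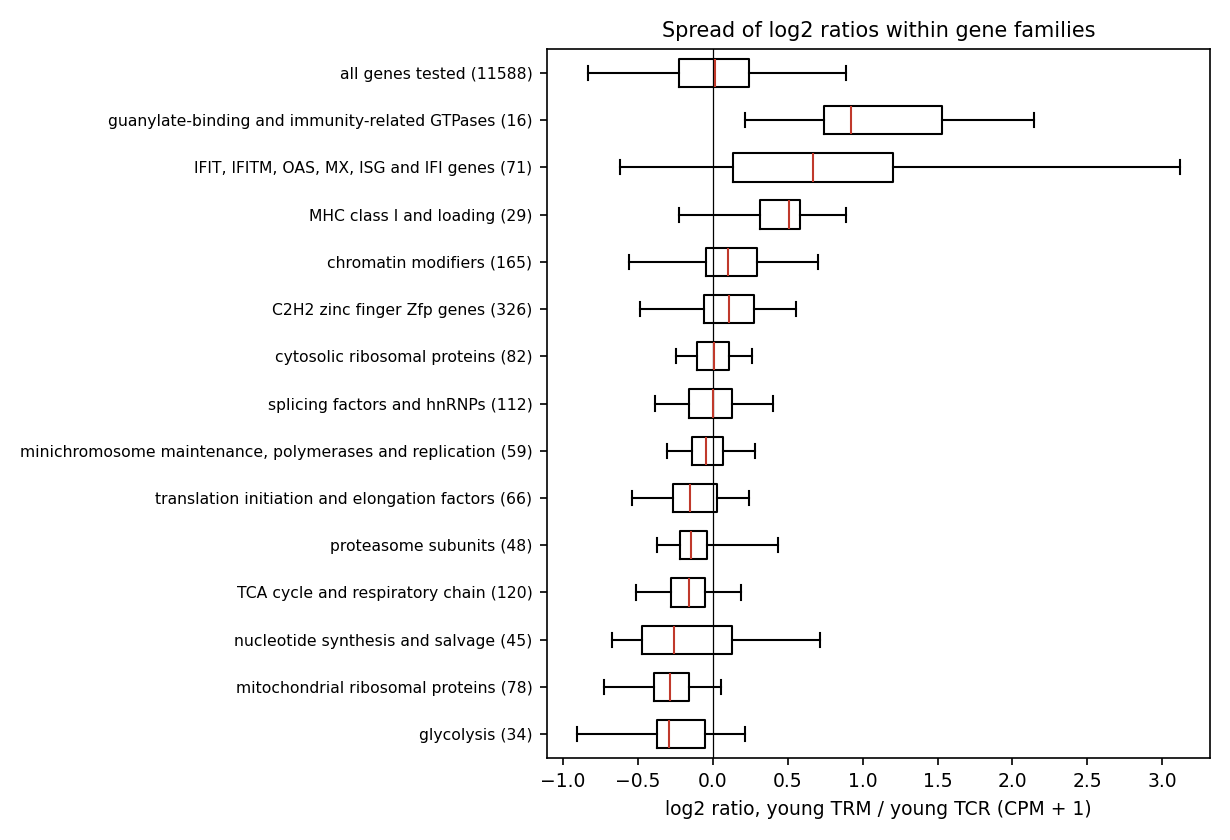
Boxes give the quartiles and median (red) of the log2 ratio of young TRM to young TCR within each family, and whiskers the 5th to 95th percentile, with the number of genes in brackets. GBP and IRG genes lie wholly above 0, ribosomal proteins and splicing factors lie around 0, and mitochondrial ribosomal proteins and glycolysis lie mostly below it.

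Enzymes that attach or remove ubiquitin were called more often upwards, with 10 of 263 genes risen and 1 fallen, near the background of 4.18% for rises. Rnf149, a membrane-bound ligase, rose from 15.3 to 164 CPM (10.7-fold, interval 9.83 to 11.6). Usp18 and Ube2l6, which remove and attach the ubiquitin-like protein ISG15, rose from 33.4 to 80.2 and from 11.1 to 27.9 CPM. In the BCL2 and caspase family, where 2 of 39 genes rose and 3 fell, Bcl2, which protects cells from death, rose from 308 to 788 CPM (2.56-fold, interval 2.505 to 2.61), and Bmf, which opposes it, rose from 5.77 to 13.9 CPM. Among 31 sphingolipid genes 1 rose and 3 fell. Smpd5, a sphingomyelinase, rose from 4.17 to 16.1 CPM, while Sgms1, which makes sphingomyelin, fell from 20.1 to 5.73 CPM and Smpdl3b fell from 25.97 to 7.41 CPM. A gene for breaking sphingomyelin down thus rose while the synthase gene fell. Of 42 amino acid and one-carbon genes 1 rose and 5 fell. Srm, which makes spermidine, fell from 112 to 51.9 CPM, and Chac1, which degrades glutathione, rose from 8.95 to 23.4 CPM. Acsbg1, an enzyme that activates fatty acids, rose from 16.1 to 58.7 CPM (3.64-fold, interval 3.33 to 3.98).

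Regulators of small GTPases and second messengers had scattered calls. Prex1 and Vav2 both activate Rac, and they went apart, Prex1 rising from 129.6 to 306 CPM and Vav2 falling from 53.5 to 21.2 CPM. Arhgap26, which switches small GTPases off, fell from 45.1 to 17.9 CPM. Of 38 Ras and Rap regulators 4 rose and 2 fell: Rap1gap2, which switches Rap1 off, rose from 2.44 to 12.6 CPM, and its relative Sipa1l1 fell from 144 to 66.2 CPM. Pde4a, which breaks down cyclic AMP, rose from 6.76 to 23.8 CPM. The phosphatase genes Dusp2 and Dusp7, which act on MAP kinases, went apart, with Dusp2 rising from 49.1 to 128 CPM and Dusp7 falling from 17.8 to 5.73 CPM. Of the 27 amino acid transporter genes, the glycine transporter gene Slc6a9 rose from 12.5 to 36.95 CPM, while Slc1a2, for glutamate, and Slc6a19, for neutral amino acids, fell from 10.4 to 1.45 and from 18.1 to 5.02 CPM. Slc17a6, which loads glutamate into vesicles in neurons, fell from 7.65 to 0.255 CPM (29.9-fold, interval 15.6 to 66.1), and Slc37a2, a sugar-phosphate exchanger, fell from 12.3 to 1.79 CPM.

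Of 118 cytoskeleton genes 4 rose and 8 fell. Coro2a, which binds actin, rose from 50.6 to 200.2 CPM (3.96-fold, interval 3.77 to 4.16). Mapre2, a protein of growing microtubule ends, fell from 118 to 46.5 CPM, Myo10, a myosin of cell protrusions, fell from 30.8 to 7.75 CPM, and the tubulin gene Tubb2b fell from 24.2 to 5.82 CPM. Sytl2 and Sytl3, which tether secretory granules, fell from 23.5 to 5.28 CPM (4.45-fold, interval 3.798 to 5.23) and from 47.1 to 14.7 CPM, against 5 risen and 3 fallen in 207 genes of membrane traffic. Vim, which encodes the intermediate filament vimentin and belongs to no family counted here, rose from 204 to 1147 CPM (5.63-fold, interval 5.503 to 5.77), with 207 and 199.7 CPM in the young TCR columns and 1178 and 1121 CPM in the young TRM columns. It was among the 20 genes with the largest gain in CPM.

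A further 436 called genes belonged to none of the families. AA467197, also known as Nmes1, rose from 12.1 to 234 CPM (19.4-fold, interval 17.8 to 21.3), Rragd, a GTPase that reports amino acids to mTORC1, rose from 3.53 to 67.95 CPM (19.3-fold, interval 16.3 to 22.97), Igflr1, a receptor for IGF-like ligands, rose from 8.24 to 121 CPM, Nmnat2, which makes NAD, rose from 6.09 to 70.3 CPM, and Prr5l, which binds mTORC2, rose from 2.34 to 40.6 CPM. Tg, which encodes thyroglobulin, the precursor of thyroid hormone, fell from 71.4 to 4.797 CPM (14.9-fold, interval 12.7 to 17.5). The following were chosen after their values were seen. Flt3l, a growth factor for dendritic cells, rose from 15.4 to 121 CPM, Jaml, a costimulatory adhesion molecule, rose from 16.7 to 128 CPM, and Cemip2, a hyaluronidase of the cell surface, rose from 7.94 to 68.8 CPM. Ncf1 and Ncf4, subunits of the NADPH oxidase, rose from 133 to 292 and from 47.6 to 121 CPM. Gsn, which severs actin, fell from 85 to 19.4 CPM, Cd83 fell from 52 to 13.7 CPM, Calcrl, the receptor for CGRP, fell from 42.1 to 10.7 CPM, and Xdh, xanthine dehydrogenase, fell from 148 to 55.2 CPM.

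The largest shifts in reads were not all large folds. The 20 genes with the largest gains added 18073 CPM and the 20 with the largest losses removed 14411 CPM. Eef1a1, a translation elongation factor, had 11960 and 14180 CPM, and Top2a, the topoisomerase of dividing cells, had 1126 and 1704 CPM; neither passed 2-fold. Gzmb fell from 4393 to 1251 CPM, the largest loss of any gene. Olfr1033, an olfactory receptor gene, and Cfap53, a gene of cilia, had 1146 and 647 CPM and 883 and 506 CPM, and neither was called. LOC108167440, an uncharacterised non-coding RNA gene, rose from 268 to 1459 CPM (5.43-fold, interval 5.32 to 5.55). It lies between Akap13, which rose from 347 to 931 CPM, and Klhl25, which rose from 21.2 to 60.3 CPM, and whether the strand of reads was used in counting is not stated in the labels.

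Called genes often had a neighbour on the chromosome that was called the same way. Of 479 risen genes with a known position, 115 (24%) lay next to another risen gene, against 7.16% of uncalled genes, and of 417 fallen genes 94 (22.5%) lay next to another fallen one, against 6.36%. There were 22 runs of at least 3 such neighbours, 14 risen and 8 fallen. Many hold copies of a gene, whose reads may not be separable. The longest held 6 genes on chromosome 13 (32956811 to 34002794), from Serpinb6b to Nqo2, all fallen, and the next 5 Ifit genes on chromosome 19 (34550550 to 34662981), all risen. On chromosome 10 (75771233 to 75837419) Ddt, Gstt3, Gstt1 and Gstt2 fell, on chromosome 8 (94152607 to 94180327) Mt3, Mt2 and Mt1 fell, and on chromosome 17 (34119693 to 34160229) the 3 H2-DM genes rose.

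Other runs joined genes of unlike kind. On chromosome 9 (119971163 to 120094906) Csrnp1, Cx3cr1 and Ccr8 rose. The chemokine receptor gene Cx3cr1 rose from 0.247 to 37.9 CPM and its neighbour Ccr8 from 4.96 to 48.4 CPM, and Csrnp1, which encodes a nuclear protein, rose from 48.5 to 101 CPM. Myrip, a linker of vesicles to myosin on the same chromosome, rose from 0 reads to 12.2 CPM, at least 165-fold against a floor of 3 reads. On chromosome 7 (80377758 to 80406585) Furin and its neighbour Fes, a tyrosine kinase, rose, the latter from 2.64 to 15.8 CPM (5.97-fold, interval 4.84 to 7.41). On chromosome 16 (10783808 to 10993121) Socs1, Tnp2, Rmi2 and Litaf rose, Litaf from 43.2 to 105 CPM. On chromosome 14 (56017964 to 56085499) the mast cell protease genes Mcpt1, Mcpt2 and Mcpt8 rose from at most 0.173 CPM to at most 4.06 CPM. The summed mast cell and basophil markers, with Mcpt8 among them, had 32.5 and 89.0 CPM, but Kit made up 29.6 and 78.4 CPM of these sums. A call did not hold for Csrnp1 with scaling by library totals only, a pseudocount of 5 CPM and column 2 alone. The call of Rmi2 ended in 4 settings, with log2 ratios of 0.94 to 0.99.

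**Figure D4:**
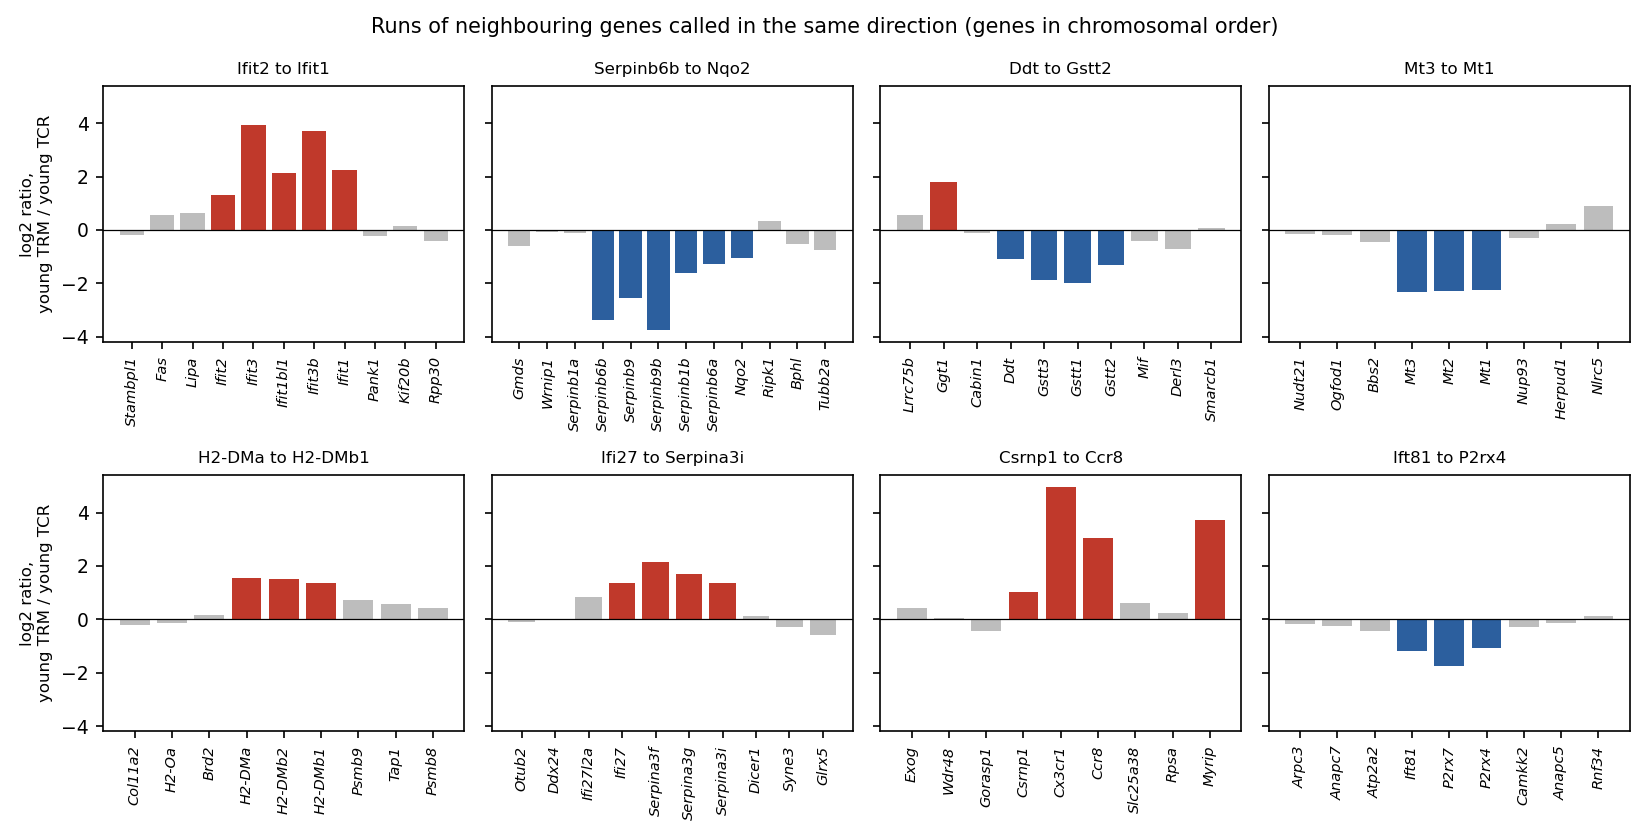
Each panel shows a run of neighbouring genes called in the same direction with the 3 tested genes on either side, in chromosomal order, as the log2 ratio of young TRM to young TCR (CPM + 1). Red bars rose, blue bars fell and grey bars were not called; the runs end abruptly, as at the 3 metallothionein genes Mt3, Mt2 and Mt1.

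Some genes were switched on or off in these libraries. In 12 genes the level went from under 1 CPM in young TCR to at least 10 CPM in young TRM. Lcn10, a lipocalin, had 9 reads in young TCR and 1809 in young TRM (231-fold, interval 122 to 507), and Drc1, a gene of the motile cilium, 14 and 1429. Tmem273 had 6 and 659 reads, Ppp2r2c, a regulatory subunit of a phosphatase, 12 and 531, and Fcrl1, a receptor known from B cells, rose from 0.419 to 13.1 CPM although the summed B cell markers fell. In 4 genes the level went the other way, Il13, Ptgir, Gucy2e, a guanylate cyclase known from the retina, and Utf1, a chromatin protein of embryonic stem cells; Gucy2e fell from 12.1 to 0.681 CPM and Utf1 from 11.3 to 0.965 CPM. Over all calls, 89 genes rose from under 1 CPM and 109 fell to under 1 CPM.

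The aged TRM library had the same cytokines and differs in age from both young ones, so its values are given without a test. The genes that rose summed to 18584 CPM in young TCR, 55157 CPM in young TRM and 41945 CPM in aged TRM, and those that fell to 21370, 7080 and 12093 CPM. The aged library thus lay between the young ones in both sums. Because the genes were selected for their difference between the young libraries, a further library tends to lie between them. The order of these sums is therefore no result about age. Single genes departed from that order. Serpine2 had 125 and 15.8 CPM in the young libraries and 144 CPM in aged TRM, Mt1 had 50.1 and 9.82 CPM and 55.9 CPM, and Chst11 67.7 and 27.1 CPM and 76.7 CPM, so that all 3 were as high with age as without the cytokines. Lif was at 77.6 CPM in aged TRM, near its young TCR level, and Ly6c1 at 6.69 CPM, below it. Adam19, Sema6d and Cpd, at 382 CPM, 224 CPM and 175 CPM, were higher than in either young library.

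**Figure D5:**
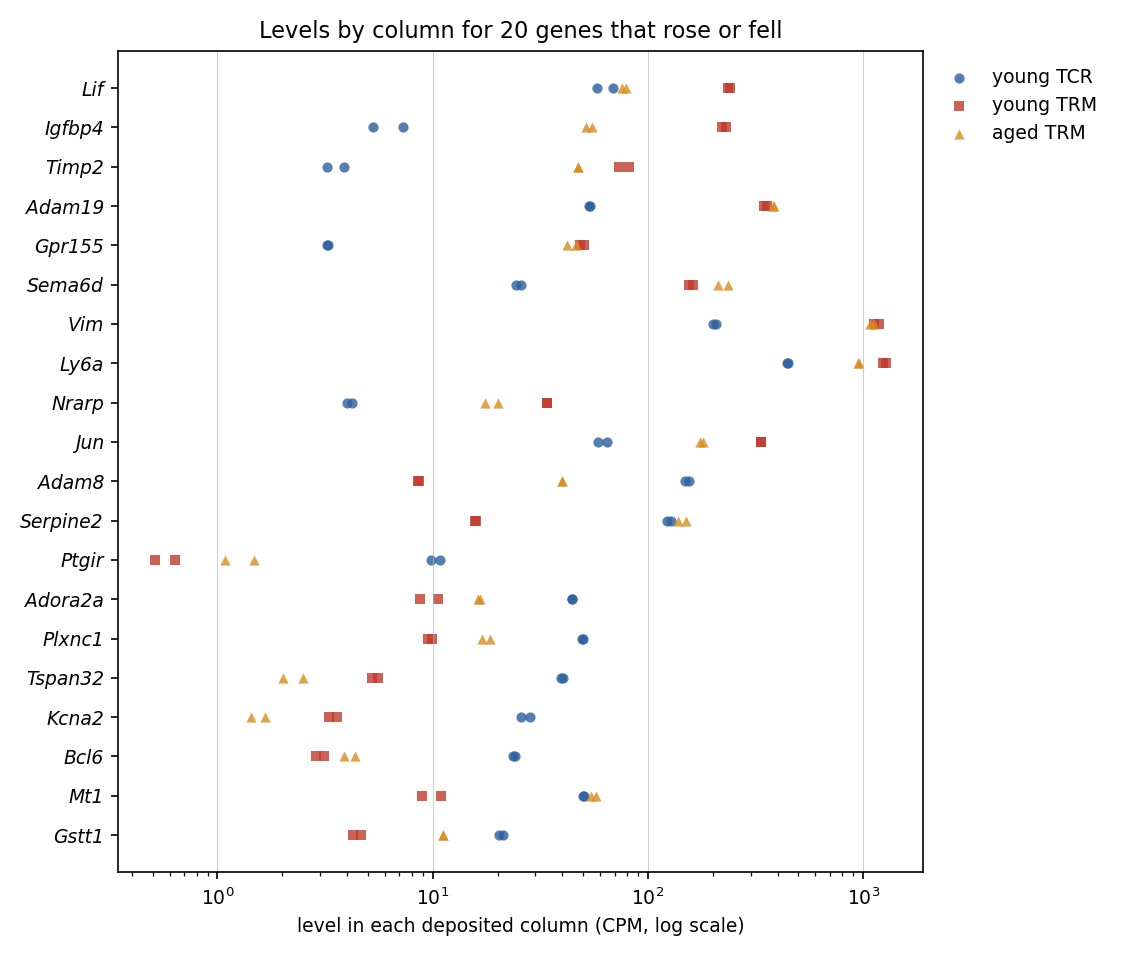
Levels in CPM on a log axis in the 2 deposited columns of each sample, for 20 genes that rose or fell. Circles are young TCR, squares young TRM and triangles aged TRM. The genes were picked from those called, so the gap between the young samples follows from the choice. Aged TRM lies near the young TCR level for Serpine2, Mt1 and Lif.

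Among the genes named above, some lost their call only when the pseudocount was raised to 5 CPM, under which low levels give smaller ratios. These were Ebi3, Tgfb3, Adora2b, Cldn10, Ltbp3, H2-Aa, Bmf, Ddt, Mt3, Tnp2, H2-DMb1, Nqo2, Mcpt1, Mcpt2, Mcpt8, Cpa3, Ncr1, Klrb1c and Klrb1b.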

How the data were processed

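RNA from 3 samples, 1 per group, was sequenced. The authors deposited estimated counts of reads per gene and TPM (transcripts scaled to a fixed total) in 2 numbered columns per sample, per the file headers. Bowtie and the GRCm38 (mm10) assembly are named in the submitters' processing notes; the program for counting and the annotation were not given in the sources used here. A further 24 columns of values belong to no sample analysed and were not used.

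Estimated counts were rounded in each column and then summed over the columns of a sample. CPM used library sizes scaled by the trimmed mean of M values (TMM), computed over all 3 libraries with aged TRM included, in edgeR 4.0.16 under R 4.3.3. Genes with at least 1 CPM in either young sample were tested. A call needed an absolute log2 ratio of at least 1 with a pseudocount of 1 CPM and a 95% Clopper-Pearson counting interval that excluded 1. With 1 sample a side no count model was fitted and no p-value computed. The libraries held 39915663, 36021887 and 40385477 reads (young TCR, young TRM, aged TRM), so that 3 reads correspond to 0.0740, 0.0851 and 0.0738 CPM.

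Genes were named where they were called in a family (all if at most 8, otherwise the 8 with the largest ratio in each direction), were among the 30 largest ratios in either direction at 10 CPM or more or among the 20 largest CPM gains or losses, lay in a run of at least 3 neighbours called alike, or stood on a short list of reference genes. Genes outside that rule are marked in the text, except for cell type markers, which were picked from marker lists and carry no mark. Some genes that the rule would name are not reported here. The lists and members were chosen with earlier results of these data known, and the patterns that assign genes to the 94 families were corrected after the data were seen. Gene positions and promoters came from RefSeq on GRCm38.p6, matched for 17071 of 17121 genes, and 23 symbols listed as dates were restored from the gene IDs.

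Alternatives were scaling by library totals, DESeq2 1.42.0 size factors, pseudocounts of 0.5 and 5 CPM, a minimum of 10 CPM, no minimum, the deposited TPM, and each column alone. The steps were tested on simulated data. Computation used Python 3.11.15 with numpy 2.4.6, scipy 1.17.1, pandas 2.3.3 and matplotlib 3.10.9.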

Additional observations from a re-analysis of the deposited data

How the results depend on the processing

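Of 901 called genes, none changed direction in any setting, and 473 (284 risen, 189 fallen) kept their call in every setting other than the minimum of 10 CPM, under which 318 of the called genes were not tested. The counts of risen and fallen genes were 484 and 417, and they moved by over 1.5 times under these settings: a pseudocount of 5 CPM gave 296 risen and 190 fallen genes, and a minimum of 10 CPM gave 234 fallen genes. The minimum of 10 CPM gave 349 risen genes. The remaining settings that recount all genes gave 441 to 548 risen and 381 to 513 fallen genes. With a pseudocount of 5 CPM, 2 purinergic genes rose and 5 fell, and 2 semaphorin and plexin genes rose and 5 fell. Under that pseudocount 2 costimulation and adhesion genes rose and 7 fell, and 2 NK lectin-like receptor genes rose. It also gave 4 risen and 3 fallen basic helix-loop-helix and clock genes, and 2 risen and 1 fallen bZIP genes. Of the other G protein-coupled receptor genes, 7 rose and 4 fell under it. With no minimum level the median was 0.01 for those receptors, -0.10 for sugar transporters and -0.16 for glutathione and peroxide enzymes. Of 35 families whose median was at least 0.2 in size, the median of 2 changed sign in some setting, those of the carbonic anhydrases and of the growth factors and IGF-binding proteins. In all 4 pairings of a young TRM column with a young TCR column, 399 risen and 323 fallen genes passed the 2-fold limit. No paired analysis was possible because each group had 1 sample. Depth limits the weakest genes: a gene listed with 0 reads allows up to 3 reads. The first numbered columns alone gave 490 risen and 446 fallen genes, and the second 491 and 443.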

Other observations

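Some genes that rose or fell in the young TRM library lay closer to the young TCR level than to the young TRM level in the aged TRM library, although both TRM libraries had the same cytokines. These genes were chosen after their values were seen, and with 1 sample per age the difference was not tested. Trim30c, a member of an interferon-induced family, had 1.21, 26.2 and 2.41 CPM in young TCR, young TRM and aged TRM. Rap1gap2 had 2.44, 12.6 and 2.48 CPM. Casp1, the inflammasome protease gene, had 19.3, 5.88 and 20.4 CPM.

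Genes without a protein product were few in the table. Of 19 tested long non-coding RNA genes 3 rose and none fell, while 475 protein-coding genes rose and 417 fell of 11528.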
